A study of Drosophila melanogaster with 7 samples.

Results

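CP190 binding sites were compared between mitotic and interphase cells of Kc167, a Drosophila melanogaster line of embryonic origin that grows in culture. The comparison used 1 list of chromatin immunoprecipitation sequencing (ChIP-seq) peaks per phase and kept the peaks on 2L, 2R, 3L, 3R, 4 and X, called the main arms here. That left 3759 of 5608 peaks in the mitotic list and 10431 of 11470 in the interphase list, or 14190 of the 40204 peaks in the 7 lists of the series. Cells were fixed, stained for DNA and for histone H3 phosphorylated at serine 10, a mark of mitotic chromosomes, and sorted into the mitotic and the interphase group. Both groups were of the same line, with no treatment named in the labels, and both were precipitated with a rabbit antibody against CP190. The H3 staining came before the precipitation in both groups and was detected with an anti-rabbit reagent. No source used here gives the purity of the sorted cells.

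CP190 is a zinc-finger protein with a BTB domain that is brought to chromatin by DNA-binding insulator proteins such as dCTCF, BEAF and Su(Hw). Insulator sites lie between or within regulatory domains, often near active promoters, and can limit the reach of enhancers or of silent chromatin. During mitosis chromosomes condense and many chromatin proteins leave them, and the persistence of a factor at its sites through division is known as mitotic bookmarking.

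An interphase peak is called retained when a mitotic CP190 peak overlapped it by at least 1 bp, and lost when none did. Lost means only that the mitotic list has no call there. The lists hold no read numbers, so their depth is unknown and CP190 below the calling threshold would also count as lost. With 1 library in each group, the differences below have no replicate error and no test was made. Intervals in parentheses are 95% intervals over peaks (Wilson for a share, Newcombe for a difference of shares, order statistics for a median) and cover counting error only. They treat peaks as independent, and neighbouring peaks were not. Positions are those of the deposited lists, whose sequence names are those of genome release 5. The score is the authors' value per peak and ranks peaks within 1 list only.

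Most mitotic CP190 peaks overlapped an interphase CP190 peak, and most interphase peaks had no mitotic call. An interphase call was present at 3316 of the 3759 mitotic peaks (88.2%, 87.1 to 89.2%). Of the 10431 interphase peaks, 3277 were retained (31.4%, 30.5 to 32.3%) and 7154 were lost. Both shares depend on the lengths of the lists. With equal numbers of the highest scoring peaks in both lists, 57.1% of mitotic peaks had an interphase call and 54.9% of interphase peaks were retained. The retained share was 33.4% on X, 28.9% on 2L, 34.3% on 2R, 30.4% on 3L and 30.2% on 3R. On the small chromosome 4, 16 of 51 interphase peaks were retained. The large arms carried between 27.8 and 37.99 mitotic peaks per Mb and between 79.3 and 97.8 interphase peaks per Mb, with 2L lowest and 2R highest in both phases. Chromosome 4 was sparser, with 16.3 mitotic and 37.8 interphase peaks per Mb. The share on X was 2.47 percentage points (0.188 to 4.80) above that of the large autosomal arms pooled (30.9%), although 2R alone stood above X. With equal list lengths the difference was 2.22 points (-1.84 to 6.22), an interval that includes 0.

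The overlaps were rarely marginal. The median overlap of a retained peak with its mitotic peak was 536 bp, and the smallest was 6 bp. Only 16 retained peaks (0.488%) overlapped by 50 bp or less. On the other side of the definition, 35 lost peaks (0.489% of the lost) had a mitotic peak edge within 50 bp. Lost peaks lay at a median edge distance of 10218 bp from the nearest mitotic peak, with quartiles of 3447 and 23610 bp. A mitotic call nearby was uncommon, and 776 lost peaks (10.8%) had one within 1000 bp. For the 443 mitotic peaks without an interphase call, the median edge distance to the nearest interphase peak was 4156 bp. Of these, 108 (24.4%) were within 1000 bp of one. The interphase list is the denser one, with 10431 peaks against 3759 mitotic peaks. Shorter distances to it follow from that, so these values do not compare with those of the lost peaks.

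Most retained sites were narrower in mitosis than in interphase. Among the 3052 sites where 1 mitotic peak met 1 interphase peak, the median width was 562 bp in mitosis and 766 bp in interphase. The mitotic peak was narrower in 2459 pairs (80.6%, 79.1 to 81.9%), wider in 590 and equal in 3. The median log2 ratio of mitotic over interphase width was -0.38 (-0.41 to -0.36), which is a width ratio of 0.766. In 1895 pairs (62.1%) the mitotic peak lay wholly inside the interphase peak, in 257 the interphase peak lay inside the mitotic one, and in 900 the peaks were staggered. The midpoints nevertheless lay close together, with a median offset of 57 bp and quartiles of 23.5 and 120 bp. The mitotic peak covered a median of 74.9% of the interphase width.

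The width difference followed the interphase score. Mitotic widths were nearly level across quintiles of the interphase score, while interphase widths were larger in each successive quintile. Score and width of an interphase peak rose together, so ranking by interphase score also placed wider interphase peaks in the higher quintiles. In the lowest quintile the median width was 522 bp in mitosis and 494 bp in interphase over 244 pairs, and 44.7% of pairs (38.6 to 50.9%) were narrower in mitosis. In the third quintile the medians were 560 bp in mitosis and 653 bp in interphase, with a log2 ratio of -0.15 (-0.20 to -0.10). In the highest quintile they were 574 bp in mitosis and 946.5 bp in interphase over 1386 pairs, with 94.9% of pairs narrower and a log2 ratio of -0.62 (-0.65 to -0.60). When the same pairs were ranked by mitotic score there was no such gradient, and the median log2 ratio was -0.50 in the lowest mitotic quintile and -0.38 in the highest. The arms were alike in this, with medians between -0.43 and -0.33 on the large arms. With the pairs ranked by interphase width instead, the median log2 ratio was -0.03 in the narrowest class and -0.95 in the widest. Pairs chosen for a wide interphase peak have a lower ratio more readily. The part of this choice in the gradient by interphase score was not tested. Called width depends on the depth of a library, which is unknown for both lists, and its part in the narrowing was not tested.

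**Figure D1:**
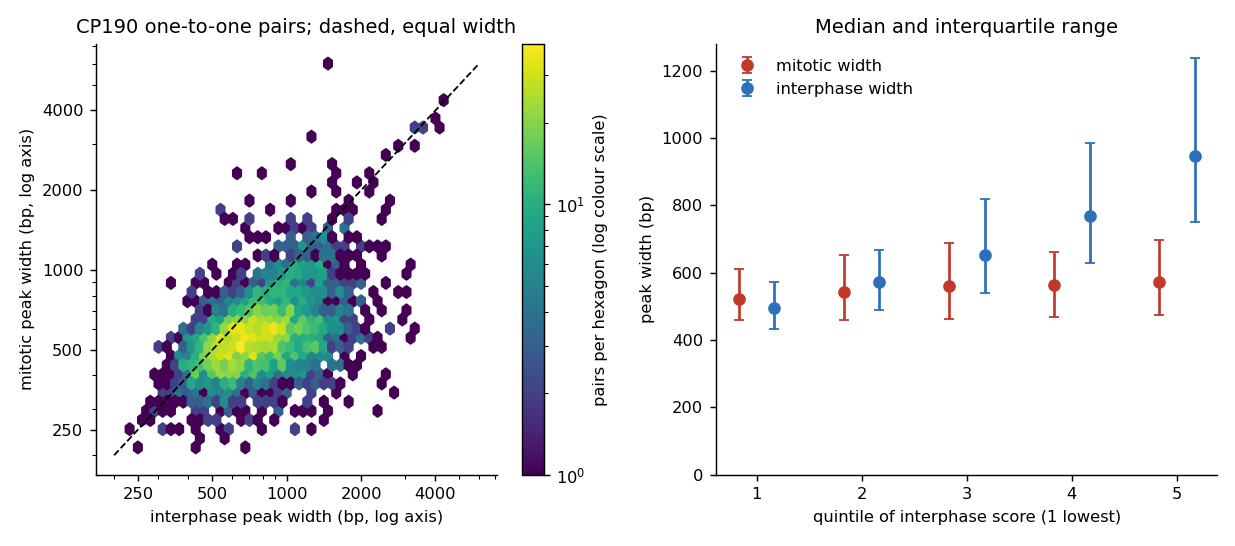
Left, mitotic against interphase width of the 3052 CP190 sites with 1 peak in each phase, in bp on log axes, coloured by the number of pairs per hexagon. Right, median width (points) and interquartile range (bars) of the mitotic and interphase peaks of these pairs by quintile of interphase score. Mitotic medians stay between 522 and 574 bp, while interphase medians run from 494 to 946.5 bp.

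The CP190 lists, at -0.38 (-0.41 to -0.36), differed in this from those of the other insulator proteins with lists in both phases. For BEAF, the boundary element-associated factor, the median log2 width ratio of mitotic over interphase was -0.12 (-0.13 to -0.10) over 2211 pairs. For dCTCF, the fly homolog of CTCF, it was 0.39 (0.35 to 0.46) over 839 pairs, and mitotic peaks were the wider ones, at a median of 939 bp in mitosis and 721 bp in interphase. The intervals of the 3 proteins did not overlap, but they cover counting error over peaks only. Without replicate libraries they cannot show that the proteins themselves differ. Called width also depends on the depth of a library, and its part in these differences was not tested. The retained share of main-arm peaks was 31.4% for CP190, against 42.1% for BEAF and 33.8% for dCTCF. These shares do not rank the proteins, since the lists held 3759 mitotic and 10431 interphase peaks for CP190, 2432 and 5681 for BEAF, and 2237 and 2882 for dCTCF.

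The largest relative narrowing among sites with an interphase score of at least 100 was at 3L 709780 to 712584, where the mitotic peak was 339 bp wide and the interphase peak 2805 bp (log2 ratio -3.05). Both peaks scored well within their lists, 932.56 in mitosis and 3100 in interphase, and BEAF and dCTCF were called there in both phases. The sites at 2R 18482894 to 18485169 and 3R 25682664 to 25685866 had mitotic peaks of 303 and 535 bp, against interphase peaks of 2276 and 3203 bp. All 5 sites with the largest narrowing had an interphase dCTCF peak, as did 60.7% (47.6 to 72.4%) of the 56 pairs with an interphase peak of 2000 bp or more and 38.04% of all pairs. Sites chosen for narrowing have wide interphase peaks, which overlap other lists more readily. The largest widening was at 2R 13063843 to 13069925, with 6011 bp in mitosis and 1492 bp in interphase (log2 ratio 2.01), and the site at 3L 16179261 to 16182076 had 2264 bp in mitosis and 625 bp in interphase. Of the 5 sites with the largest widening, none had an interphase dCTCF peak and 4 had a mitotic Su(Hw) peak, which 16.5% of all pairs had. Sites chosen for widening have wide mitotic peaks. Of all 22 mitotic CP190 peaks of 2 to 3 kb, 20 (90.9%) overlapped a mitotic Su(Hw) peak. Su(Hw) is the zinc-finger protein of the gypsy insulator.

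Broad mitotic regions stood apart in the other lists. On the main arms, 31 mitotic CP190 peaks were 3 kb or wider, with a median width of 4876 bp and a maximum of 6303 bp. Of these, 29 overlapped a mitotic Su(Hw) peak (93.5%, 79.3 to 98.2%) and 24 a mitotic dCTCF peak (77.4%), while none overlapped a mitotic BEAF peak. Among the 3706 mitotic CP190 peaks under 2 kb, the shares were 15.9% for Su(Hw), 21.2% for dCTCF and 28.4% for BEAF. In the interphase lists, dCTCF was called at 3 of the 31 regions (9.68%) and BEAF at 12 (38.7%). Among the peaks under 2 kb, these interphase shares were 34.4% and 50.4%. Of the 22 mitotic CP190 peaks of 2 to 3 kb, 20 overlapped mitotic Su(Hw), 11 mitotic dCTCF and 5 mitotic BEAF. Wider regions overlap other lists more readily, which bears on the mitotic Su(Hw) and dCTCF shares. For mitotic BEAF, 0 of 31 regions leaves a share of up to 11.03% within the counting interval.

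Some sites were divided differently in each phase. In 66 cases 1 mitotic peak, of median width 1089 bp, spanned more than 1 interphase peak, and in 102 cases 1 interphase peak, of median width 1519.5 bp, held more than 1 mitotic peak. At X 19530865 to 19535431, an interphase peak of 4567 bp with a score of 3100 held 3 mitotic peaks of 727, 973 and 406 bp with scores of 315.46, 293.69 and 53.06. At 3L 646476 to 649992, an interphase peak of 3517 bp held mitotic peaks of 1668 and 1617 bp that together filled most of it. The opposite case was clearest at 2L 6876926 to 6882888, a mitotic region of 5963 bp with interphase peaks of 971 and 1873 bp at its ends. The regions at 2R 18468042 to 18473966 and 3R 1572944 to 1578714 had the same form, with interphase peaks of 838 and 1379 bp in the first and of 760 and 2000 bp in the second. The 5 widest such mitotic regions all overlapped mitotic Su(Hw), mitotic dCTCF and interphase BEAF peaks, but they were chosen for their width. Of the 66 mitotic peaks of this kind, 22 overlapped mitotic Su(Hw), 33 mitotic dCTCF and 36 interphase BEAF (54.5%, 42.6 to 66.0%). Over all mitotic CP190 peaks the shares were 17.0%, 21.8% and 50.1%. The 66 peaks were wider, at a median of 1089 bp against 564 bp for all mitotic peaks, and wider peaks overlap other lists more readily.

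Retained interphase peaks were wider than lost ones before any change in mitosis. Their median interphase width was 776 bp (758 to 791) against 554 bp (549 to 559) for lost peaks. The difference was present within every score quintile, from 491 bp for retained and 437 bp for lost peaks in the lowest to 972 and 798 bp in the highest. Retention was 8.92% (7.36 to 10.8%) for interphase peaks under 400 bp, 32.3% from 600 bp to below 800 bp and 70.7% (67.3 to 73.9%) from 1200 bp to below 2000 bp. A wide peak can be overlapped more easily. When both lists were reduced to 400 bp around each midpoint, these shares were 8.55, 31.6 and 61.1%. The 111 peaks of 2000 bp or more stood at 86.5% by called width and 38.7% by the 400 bp windows. Score rose with width, with a median of 86.51 under 400 bp, 446.42 from 600 bp and 1855.4 from 1200 bp in these classes. Retention rose with score as well, from 13.2% (11.8 to 14.7%) in the lowest quintile to 71.0% (69.0 to 72.9%) in the highest. The shares by width class were not adjusted for score.

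Mitotic peaks were sparser than interphase peaks, yet they had a near neighbour more often than an equal number of the highest scoring interphase peaks. The median distance from a midpoint to the nearest other midpoint was 7055 bp (6622.5 to 7454.5) in the mitotic list and 2888.5 bp (2798 to 2974) in the interphase list. In a set of the 3759 highest scoring interphase peaks, equal in number to the mitotic list, it was 9068 bp (8617 to 9562). The share of peaks with a neighbour within 2 kb was 23.3% (22.0 to 24.7%) in the mitotic list and 11.3% (10.4 to 12.4%) in this equal-sized interphase set, while in the full interphase list it was 37.99%. Of the 3277 retained interphase peaks, 17.3% (16.0 to 18.6%) had another retained peak within 2 kb. The equal-sized set was chosen by score and the mitotic list was not, and the part of this choice in the difference was not tested. Beyond about 20 kb the mitotic and the equal-sized interphase curves ran together, and their 95th percentiles were 50087 and 47206 bp.

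The close mitotic pairs were of several kinds. Of the 876 mitotic peaks with a neighbour within 2 kb, 451 (51.5%) belonged with their neighbour to separate interphase peaks, 201 (22.9%) lay with it in the same interphase peak, and for 224 (25.6%) the peak or its neighbour had no interphase call. Over all mitotic peaks 11.8% had no interphase call, and either peak of a pair can lack one, so the last share is not particular to close pairs. These close peaks resembled the others in score, with a median of 118.51 against 125.83, and in width, with 570 against 562 bp. Mitotic BEAF was called at 24.0% of the close peaks and 29.4% of the others. For mitotic dCTCF the shares were 18.9% and 22.7%, and for mitotic Su(Hw) 16.4% and 17.2%.

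**Figure D2:**
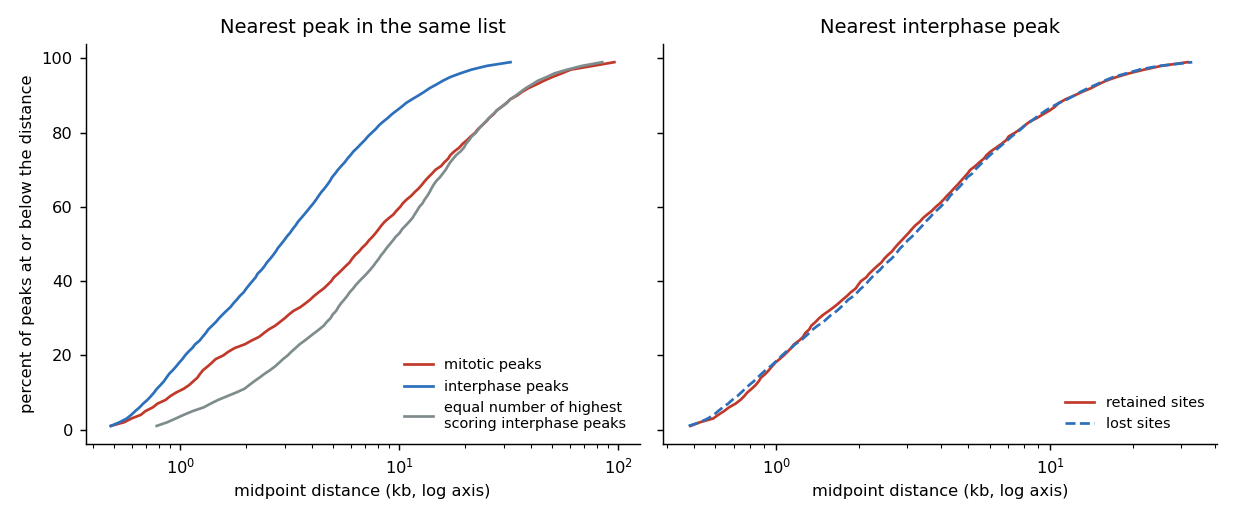
Cumulative distributions of the distance from a CP190 midpoint to the nearest other midpoint, in kb on a log axis. Left, mitotic peaks, all interphase peaks and the equal number of highest scoring interphase peaks, each against its own list, with medians of 7055, 2888.5 and 9068 bp. Right, retained and lost interphase sites against all interphase sites, with medians of 2784.5 and 2940.5 bp and nearly the same curve.

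Retained and lost sites lay at similar distances from their interphase neighbours. The median distance to the nearest interphase peak was 2784.5 bp (2660.5 to 2936) for retained sites and 2940.5 bp (2829 to 3029.5) for lost sites, intervals that overlapped. Retention was 31.1% (29.1 to 33.2%) for sites with a neighbour within 1 kb, 30.9% (29.3 to 32.5%) between 2 and 5 kb, and 32.3% (27.7 to 37.2%) for the 375 sites with none within 20 kb. Within the middle of the score range a difference was seen. In the third quintile the medians were 2313 bp (1909.5 to 2486) for retained and 2922.5 bp (2742 to 3126) for lost sites, and in the fourth 2634 bp (2390 to 2941) and 3297 bp (3077 to 3531.5). In the lowest, second and highest quintiles the intervals overlapped. Counted by the number of other interphase sites within 50 kb on each side, retention was 27.3% (24.7 to 30.1%) at the 1040 sites with 4 or fewer, 32.1% with 5 to 9, 31.5% with 10 to 14, 31.3% with 15 to 19, and 37.1% (31.7 to 42.9%) at the 280 sites with 20 or more. Between these end classes the share was level.

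High-scoring sites with no interphase neighbour within 20 kb had both fates. The retained site at 2L 17784464 to 17785227, with BEAF and dCTCF in interphase, lay 24398 bp from its nearest neighbour and had scores of 2025.55 in mitosis and 3144.73 in interphase. The retained site at 2L 8888410 to 8889660 was farther from any other, at 42306.5 bp, and measured 843 bp in mitosis and 1251 bp in interphase. Its interphase score of 3100 was reached by 585 interphase peaks, so the order among such sites is arbitrary. Among lost sites, 3R 6943413 to 6944168 lay 33579.5 bp from its neighbour with an interphase score of 2919.87, and no other protein was called there in any list. The series has no interphase list of Su(Hw), so its interphase binding is unknown at every site. The lost site at 4 1104893 to 1105758, with a score of 2294.56, carried a BEAF call in both phases and an interphase dCTCF call. Over all isolated sites, another protein was called in any list at 94 of 121 retained sites (77.7%, 69.5 to 84.2%). For isolated lost sites it was 84 of 254 (33.1%, 27.6 to 39.1%). Isolated or not, the shares were 76.6% of all retained and 45.1% of all lost sites. Retained peaks as a whole were wider and scored higher than lost ones, and wider peaks overlap other lists more readily. The part of width and score in these shares was not tested.

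Along the arms the retained share varied moderately, and over the 5 large arms pooled it was highest next to the telomere. Each large arm was divided into 10 equal parts from the telomere to the centromere, and 41 of the 50 parts had a retained share between 25 and 40%. The range was from 17.5% (12.8 to 23.5%) in part 5 of 2L to 47.9% (41.4 to 54.6%) in part 1 of 2L. The interval lay above the share of the whole arm in 6 parts and below it in 6. Over the 5 large arms, part 1 held 434 retained sites of 1078 (40.3%, 37.4 to 43.2%), against 30.4% of the 9302 sites in the other parts, a difference of 9.87 percentage points (6.83 to 13.0). This contrast was chosen after the values were seen.

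Part 1 lay above the rest of its arm on every large arm, with intervals clear of 0 on 2L, 2R and 3R. The difference was 21.6 points (14.7 to 28.6) on 2L, 9.69 (2.97 to 16.6) on 2R, 7.54 (1.23 to 14.3) on 3R, 5.49 (-1.09 to 12.6) on 3L and 4.90 (-1.78 to 11.98) on X. Part 1 was not the highest part of every arm, since part 8 of X stood at 38.9% against 37.8% in part 1, and part 6 of 3R at 37.5% against 37.0%. Without 2L the excess was 7.08 points (3.73 to 10.5). Over the 5 arms pooled, part 2 stood at 28.4% and parts 3 to 10 together at 30.6%. On 2R, parts 2 and 3 were also above the arm's 34.3%, at 39.7 and 37.0%. Sites in part 1 had a higher median score, 356.115 against 258.945 to 314.01 in the other parts. By score quintile, from lowest to highest, the excess was 10.0 points (4.58 to 16.4), 12.1 (5.96 to 18.98), 5.24 (-0.752 to 12.1), 7.01 (0.543 to 13.8) and 4.57 (-1.47 to 9.94). The intervals of the third and the highest quintile included 0.

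At the other end of the arms the retained share was slightly lower. It was 29.5% in the centromere-proximal parts 9 and 10 and 31.8% in the rest, a difference of -2.32 points (-4.59 to 0.0142). In part 10 alone it was 27.7% against 31.7%, a difference of -3.99 points (-7.35 to -0.386). Part 10 was below the share of its arm on 2R, 3L, 3R and X, and above it on 2L. Fewer sites were called there in both phases, with 265 mitotic and 679 interphase peaks over the 5 large arms, against 532 and 1078 in part 1.

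**Figure D3:**
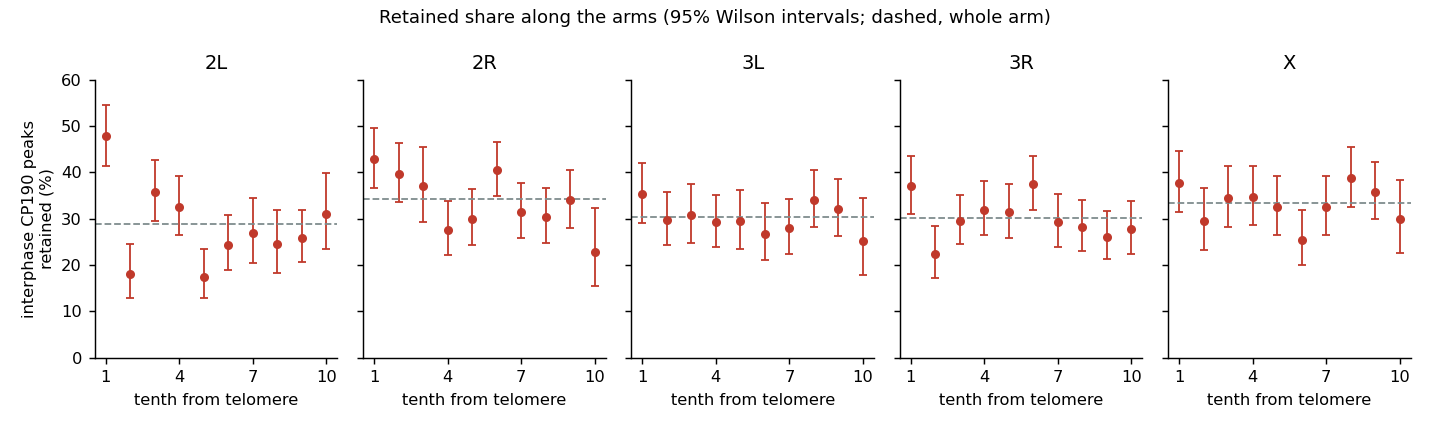
Percent of interphase CP190 peaks retained in mitosis in each of 10 equal parts of the 5 large arms, numbered from the telomere, with 95% Wilson intervals and the share of the whole arm as a dashed line. Part 1 lies above the dashed line on all 5 arms, from 35.3% on 3L to 47.9% on 2L.

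Neighbouring sites tended to share their fate. Of the 10425 neighbouring pairs, 1208 (11.6%) were both retained, 5081 (48.7%) were both lost and 4136 (39.7%) were mixed. Lost sites were 68.6% of all sites, so these counts alone do not show a shared fate. A site was retained in 36.9% of cases (35.2 to 38.5%) when the site to its left was retained and in 28.9% (27.9 to 30.0%) when that site was lost, a difference of 7.95 points (5.997 to 9.91). The difference was present on each large arm, from 6.34 points (1.89 to 10.8) on X to 10.4 points (5.73 to 15.2) on 2L. Leaving out the 67 pairs that met the same mitotic peak gave 6.63 points (4.68 to 8.60).

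The difference between sites beside retained and lost neighbours was smaller at the highest scores. It was 7.48 points (4.29 to 10.9) in the lowest score quintile, 12.8 (9.08 to 16.7) in the second, 9.83 (5.86 to 13.9) in the third and 8.67 (4.17 to 13.2) in the fourth. In the highest quintile it was 3.23 points (-0.978 to 7.28), where 73.2% of sites beside a retained neighbour and 70.0% of those beside a lost one were retained. The intervals of the second and the highest quintile did not overlap. Sites without interphase dCTCF or BEAF showed 10.2 points (7.81 to 12.7), with 26.8% retained beside a retained neighbour and 16.5% beside a lost one. Sites with both proteins showed 2.29 points (-3.27 to 7.64) at shares of 69.8 and 67.5%. The intervals of these 2 kinds of sites were only just apart. Sites with interphase BEAF only showed 5.42 points (1.70 to 9.18) and sites with interphase dCTCF only 5.96 (-0.897 to 12.9). Both of these intervals overlapped those of the other 2 kinds.

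The difference was smaller between sites farther apart. It was 5.26 points (3.33 to 7.22) for sites 2 apart, 3.36 (1.43 to 5.31) for sites 5 apart and -0.02 (-1.93 to 1.92) for sites 8 apart. It did not stay there, since 3.50 points (1.57 to 5.46) were found at 11 sites apart. Measured in kb between direct neighbours, it was 12.3 points (5.98 to 18.6) below 1 kb, 6.38 (2.13 to 10.7) from 5 to 10 kb, 3.14 (-1.34 to 7.71) from 10 to 20 kb and 9.90 (4.49 to 15.4) from 20 to 50 kb, so it had no steady course. Over all scores the difference was 7.95 points for CP190, against 10.7 (8.07 to 13.3) for BEAF and 11.8 (8.13 to 15.6) for dCTCF, and both of these intervals overlapped that of CP190. Within score quintiles it was between 3.23 and 12.8 points for CP190, 0.345 and 3.43 for BEAF, and 5.16 and 15.5 for dCTCF. BEAF retention lay near 0 in its lowest quintile (3.91% beside a retained and 0.714% beside a lost neighbour) and near 100% in its highest (100% and 99.7%), which leaves little room for a difference there.

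**Figure D4:**
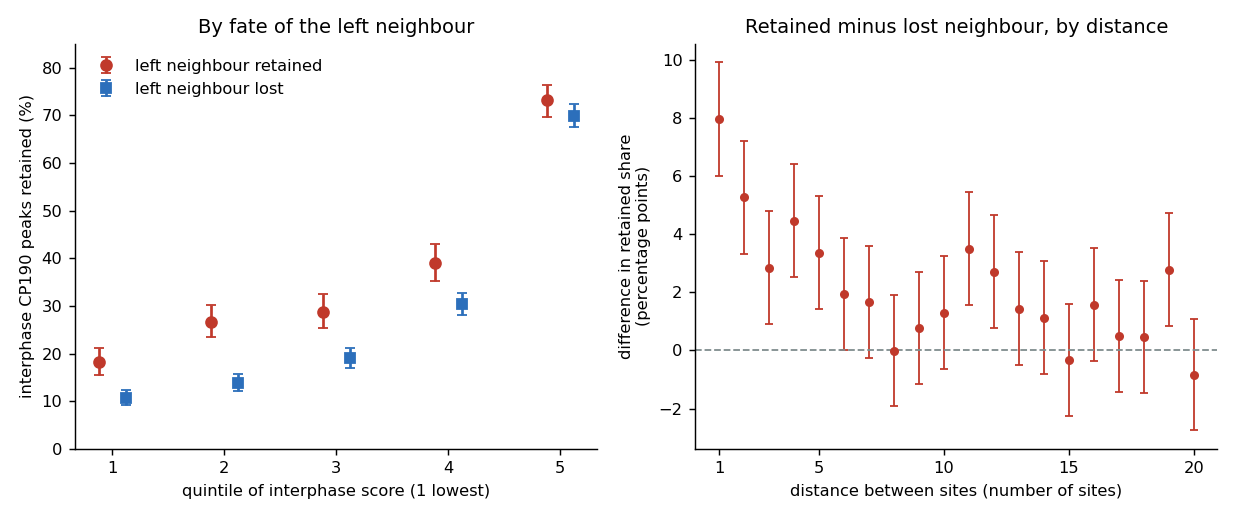
Left, percent of interphase CP190 sites retained by quintile of interphase score, for sites whose left neighbour was retained or lost, with 95% Wilson intervals. Right, the difference between these shares (retained minus lost neighbour, percentage points, 95% Newcombe intervals) for sites 1 to 20 apart, which is 7.95 points for direct neighbours and -0.02 for sites 8 apart.

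Runs of retained sites were short in the full lists, and runs of lost sites were longer. The retained sites formed 2069 runs, of which 1356 were a single site (41.4% of retained sites), 419 had 2 sites and 188 had 3. Only 15.8% of retained sites were in runs of 4 or more, and the longest run had 10 sites. The lost sites formed 2073 runs with a median of 2 sites. Of all lost sites, 66.4% were in runs of 4 or more and 20.7% in the 114 runs of 10 or more, and the longest run had 26 sites. Since lost sites were the majority, longer runs of them follow from their number as well. With equal numbers of the highest scoring peaks the order turned round, and the longest run had 17 retained sites and 11 lost sites.

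**Figure D5:**
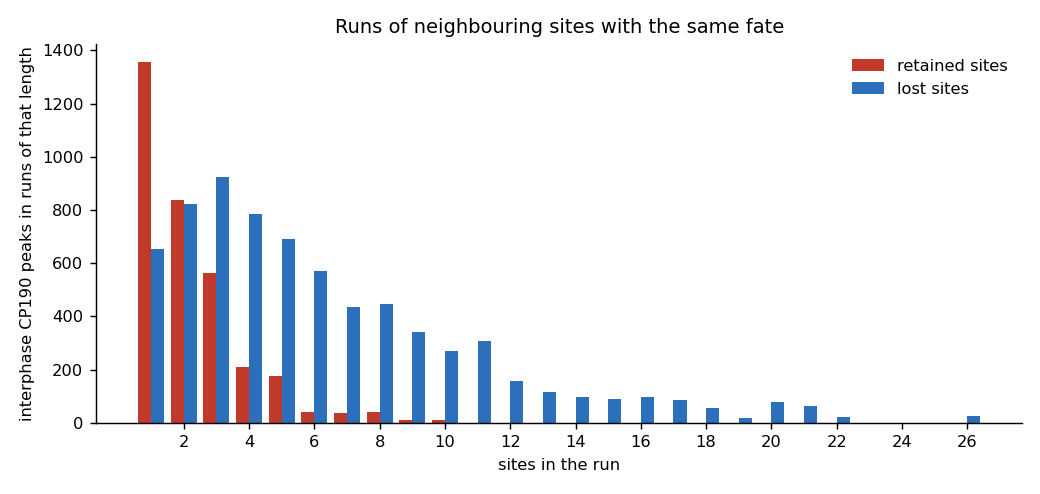
Number of interphase CP190 peaks that lay in runs of each length, for retained and lost sites. Single sites are the most frequent class of retained sites (1356), and lost sites reach runs of 26.

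Sites in long retained runs had lower scores than single retained sites. The 311 retained sites in runs of 5 or more had a median interphase score of 630.53, against 978.12 for all retained sites and 1227.57 for those standing singly. Interphase BEAF was called at 47.3% (41.8 to 52.8%) of sites in these runs and at 59.5% (56.9 to 62.1%) of single retained sites, and mitotic BEAF at 23.2% and 36.8%. The shares with mitotic Su(Hw) were 19.3% (15.3 to 24.0%) and 17.5% (15.5 to 19.6%). The 1484 lost sites in runs of 10 or more had a median score of 212.405, close to the 200.52 of all lost sites, with interphase BEAF at 28.9% against 32.0%, interphase dCTCF at 13.1% against 13.3% and mitotic Su(Hw) at 3.44% against 3.27%.

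The longest retained run covered 2R 3073888 to 3240406, with 10 sites over 167 kb. Its interphase scores lay between 228.86 and 3100, and 4 of its sites were in the highest quintile. Interphase dCTCF was called at 3 of the sites, interphase BEAF at 2 and mitotic Su(Hw) at 4. Over all retained sites the shares were 38.1%, 55.5% and 17.2% in the same order, with mitotic BEAF at 32.1% and mitotic dCTCF at 23.6%. The run held sites of several widths. Its first site measured 741 bp in mitosis and 1208 bp in interphase, and the site at 3119361 to 3121080 had 580 bp in mitosis and 1720 bp in interphase. A mitotic region of 4892 bp met neighbouring interphase peaks of 1363 and 3447 bp, which the run counts as 2 sites. Gaps between the midpoints ranged from 0.624 to 45.7 kb.

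The next longest run was compact. At 3R 12059777 to 12076692, 9 interphase sites lay within 16.9 kb, at a median spacing of 1009.5 bp. None was in the highest score quintile, and their scores ran from 126.5 to 1008.78. They met 8 mitotic peaks, with scores between 107.82 and 816.13. Mitotic BEAF was called at none of the sites and mitotic Su(Hw) at 3, against 32.1% and 17.2% of all retained sites. The retained run at X 15985309 to 16165531 had another make-up. It had 8 sites over 180 kb at a median spacing of 25695 bp. Of these, 5 were in the highest quintile and 5 had interphase dCTCF, against 38.1% of all retained sites. Mitotic peaks of 554 and 704 bp without an interphase CP190 call lay between its members.

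Other retained runs mixed sites of high and low score. At 3R 7388432 to 7446051, the median width of the 8 sites was 584 bp in mitosis and 1106.5 bp in interphase, and 3 of the sites had an interphase score of 3100. One of these, at 7438695 to 7440444, had a score of 2925.93 in mitosis. At 2R 8823448 to 8923285, where the median interphase score of the 8 sites was 193.815, mitotic Su(Hw) was called at 4 sites and dCTCF at none in either phase. At 2L 16485559 to 16533151, 5 of the 8 sites had interphase scores between 65.27 and 160.23, and the others 2617.37, 1936.92 and 1558.43.

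The longest lost run covered 3R 8254792 to 8434592, with 26 sites over 180 kb. Its interphase scores were all low, between 55.25 and 306.26, and 10 of them had an interphase dCTCF peak. A mitotic CP190 peak of 1274 bp lay inside the run, at 8291676 to 8292949, between interphase peaks and overlapping none. The lost run at 3L 8190725 to 8340127 was of another kind. Its 22 sites included interphase peaks with scores of 2545.09, 1646.73 and 1508.03, 8 sites had interphase BEAF, and no mitotic CP190 peak lay anywhere in its 149 kb. Mitotic BEAF was called at 6 of these sites. Over all lost sites the shares were 13.3% for interphase dCTCF, 32.0% for interphase BEAF and 15.2% for mitotic BEAF.

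The remaining long lost runs differed in density and in partners. At 3L 13535113 to 13646420, none of 21 sites had BEAF or dCTCF in either phase, and 2 overlapped a mitotic Su(Hw) peak. Its highest interphase score was 1336.7, and no mitotic CP190 peak was called within its 111 kb. At 2L 15919913 to 16252008, 21 lost sites spanned 332 kb, and at 2L 20154810 to 20262430 the same number lay within 108 kb. The widest stretch was at the centromere-proximal end of 3L, from 23176816 to 24286798, where 20 sites over 1110 kb were lost in succession with gaps of up to 255 kb. Interphase BEAF was at 10 of these sites and mitotic BEAF at 5, against 32.0% and 15.2% of all lost sites. In the highest CP190 score quintile were 3 sites of this run. Mitotic CP190 peaks at 23348344 to 23349134 and 23996545 to 23997016 lay in its gaps.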

How the data were processed

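CP190 ChIP-seq of sorted mitotic and interphase Kc167 cells was analysed from 1 peak list per library. Per the labels' protocols, cells fixed with 1% formaldehyde were sorted by H3 phosphorylation and DNA stain, chromatin was sonicated to 200 to 1000 bp, and libraries were cut at 200 to 300 bp. The submitters' processing notes name Bowtie 0.12.5 as the aligner. The deposited lists give a score per peak with a floor of 50 and ties at 3100. Peak names begin with MACS, per the deposited lists; caller version, threshold, control library and genome build: not given in the sources used here. Gene annotation at hand was of release 6, so sites were not assigned to genes and no sequence was read.

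Start positions were written 1-based. Overlap, width, midpoint spacing, runs and 10 equal parts of each large arm (length taken as the highest peak end in the 7 lists) were computed in Python 3.11.15 (NumPy 2.4.6, SciPy 1.17.1, matplotlib 3.10.9 for figures). Retained and back-overlap totals matched bedtools 2.31.1 exactly, and the code was checked on simulated lists. Quintiles rank the interphase score on the main arms. Named sites are the 6 longest runs of each fate, and the 5 sites at each extreme of width ratio (interphase score of at least 100), of strong isolated sites (over 20 kb) and of divided sites; examples of these are given. Alternatives were 50% reciprocal overlap, peaks scoring 100 or more, equal list lengths, 400 bp windows, all sequences, neighbours within 20 kb, averages within score quintiles, other position bins and leaving out X. The comparison and these rules were chosen with earlier results of these data known.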

Additional observations from a re-analysis of the deposited data

Results flagged for a closer look

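Outside the main arms, on the unplaced and heterochromatic sequences that the comparison leaves out, the mitotic list held 1849 CP190 peaks and the interphase list 1039. An interphase call was present at 33.4% (31.3 to 35.6%) of these mitotic peaks, against 88.2% on the main arms. Of the interphase peaks there, 618 were retained (59.5%, 56.5 to 62.4%), against 31.4% on the main arms.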

How the results depend on the processing

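Of 59 alternative values for 10 results, 32 stayed within the interval of the reported value (for runs, within 1.5 times) and 27 moved beyond it. None changed the sign of a value with an interval clear of 0. The retained share of 31.4% became 25.2% with a reciprocal overlap of 50%, 24.8% with a score of at least 100, 54.9% with equal list lengths, 29.7% with 400 bp windows and 34.0% over all sequences. The share of mitotic peaks with an interphase call became 69.8, 90.5, 57.1, 82.8 and 70.1% in the same order. The log2 width ratio was -0.28 with the reciprocal overlap, -0.57 with equal list lengths and -0.28 over all sequences. The width excess of retained over lost peaks, 222 bp, became 144 bp with the reciprocal overlap, 244.5 bp with a score of at least 100, 176 bp with equal list lengths, 171 bp over all sequences, 86.3 bp averaged within score quintiles, and 202 bp with retention judged on 400 bp windows. The spacing difference of -156 bp (retained minus lost), whose interval includes 0, became 257.25 bp with a score of at least 100, 274.5 bp over all sequences and -314.7 bp within score quintiles. The neighbour difference of 7.95 points became 5.26 with the reciprocal overlap and 10.7 over all sequences, and lay between 6.46 and 8.40 in the other settings. The longest retained run had 17 sites with equal list lengths and 20 over all sequences, and the longest lost run 11 with equal list lengths. The cause of these shifts was not tested beyond what each setting changes by construction. Alternatives that leave out pairs with a shared mitotic peak, the arm parts next to the telomere or mitotic peaks of 3 kb or wider, and widths by 400 bp retention, were added after the data were seen. No paired analysis was possible because each group is 1 library, and replicates could not be left out. Depth is unknown for both lists, so it limits every lost call.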
